A study of Mus musculus with 5 samples.

Results

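Angiogenic tip endothelial cells were examined in 5 mouse synovial sarcoma (SyS) tumours profiled by single-cell RNA-seq. They were selected on measured values. Kept cells had at least 750 detected genes and at most 25% mitochondrial UMIs, a UMI (unique molecular identifier) being the tag that counts each captured RNA molecule 1 time. A kept cell was gated as endothelial with at least 4 of the 8 genes Pecam1, Cdh5, Kdr, Emcn, Cldn5, Egfl7, Plvap and Flt1 detected, fewer than 5 UMIs of Adgrb3 (a gene of the SyS cells), at most 3 UMIs of the macrophage genes C1qa, C1qb and C1qc together, and at most 2 UMIs of the mural gene Rgs5. Of 2201 such cells, the 963 with at least 3 UMIs of Esm1, Apln, Pgf and Angpt2 together were called tip cells, and the 1042 with at most 1 such UMI were called non-tip cells. Tip cells made up 2.27% of the 42516 kept cells, out of 51670 cells in the matrices.

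The tumours came from hSS2 mice, in which human SS18::SSX2 is expressed from the Rosa26 locus once TATCre protein has been injected into the limb, so every group carried the fusion and no group lacked it. By their labels, 2 tumours (BP 1 and BP 2) were biphasic, with an epithelial component, and 1 (MP) was monophasic. In 1 further tumour (MP+BP) both of these patterns were mixed, and in another (PD+MP) monophasic areas were mixed with poorly differentiated ones. The labels of BP 1 and BP 2 share a leading number that no other tumour has and do not say whether these tumours came from separate animals, and groups of 1 tumour have no replicate error. Of the 5 tumours, PD+MP was by far the poorest in endothelial cells, with 67 gated cells against 494 to 577 in the others, and its tip and non-tip sets held 36 and 22 cells.

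New vessels grow by sprouting. A tip cell leads each sprout, extends filopodia towards vascular endothelial growth factor (VEGF) and is followed by stalk cells, while signalling from Dll4 on the tip cell to Notch receptors on its neighbours limits how many cells take the lead. Esm1 encodes a secreted proteoglycan, Apln the peptide ligand of the apelin receptor, Pgf placental growth factor, a ligand of Flt1, and Angpt2 a ligand of the Tek receptor that loosens vessel walls. In mm10 these genes lie at chr13:113209659-113218098 (Esm1, plus strand), chrX:48025146-48034853 (Apln, minus strand), chr12:85166635-85177790 (Pgf, minus strand) and chr8:18690263-18741562 (Angpt2, minus strand).

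Tip cells made up 53.0%, 35.6%, 55.5%, 27.1% and 53.7% of the gated endothelial cells of BP 1, BP 2, MP, MP+BP and PD+MP. Their 95% Wilson intervals, which cover counting error only, were 48.8 to 57.1%, 31.5 to 39.9%, 51.4 to 59.5%, 23.4 to 31.1% and 41.9 to 65.1%. MP+BP thus had the smallest share and BP 2 the next, and the other 3 tumours could not be ordered within their intervals. Both tumours labelled BP differed from each other beyond counting error. Tumours with BP in the label averaged 38.6% ± 13.2 (SD, n = 3) and those without 54.6% ± 1.22 (SD, n = 2), a difference of -16.0 percentage points with an exact two-sided permutation p = 0.2, which is also the smallest p that 3 against 2 tumours allow. Deeper cells pass a UMI threshold more easily. After every cell had been thinned to 2500 UMIs the shares were 35.9%, 25%, 34.3%, 15.0% and 35.7% in the same order, so that MP+BP and BP 2 remained the 2 lowest, while BP 1 stood beside both tumours without BP (exact two-sided permutation p = 0.6).

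**Figure D1:**
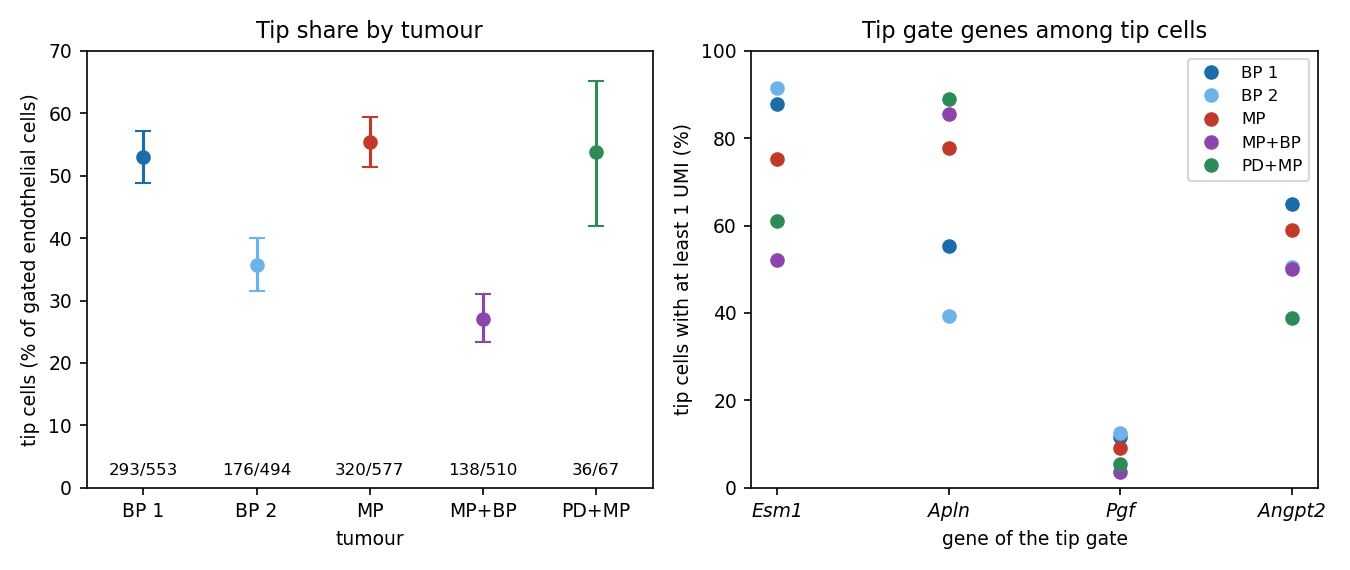
Left, the share of tip cells among gated endothelial cells (%) in each tumour, with 95% Wilson intervals and the cell numbers at the base of the panel, lowest in MP+BP (27.1%) and in BP 2 (35.6%). Right, the share of tip cells (%) with at least 1 UMI of each gene that chose them, where each point is 1 tumour and both BP tumours have the highest Esm1 and the lowest Apln points.

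The genes that chose the cells were not spread evenly among them, and their values are given as a description. Esm1 was detected in 87.7% and 91.5% of tip cells in BP 1 and BP 2, but in 75.3%, 52.2% and 61.1% of those in MP, MP+BP and PD+MP. Apln was the other way round between these tumours, at 55.3% and 39.2% in BP 1 and BP 2, against 77.8%, 85.5% and 88.9% in the same 3 tumours. Of the 4 genes, Esm1 was thus detected most often in tip cells of the BP tumours, and Apln in those of the other tumours. Many tip cells did not need that gene to pass. Without their Esm1 UMIs, 175 of 293 tip cells in BP 1 and 75 of 176 in BP 2 still reached 3 UMIs. Without their Apln UMIs, 64 of 138 in MP+BP and 17 of 36 in PD+MP did so. Angpt2 was found in 38.9% to 64.8% of tip cells and Pgf in 3.62% to 12.5%. In macrophages (at least 10 UMIs of the C1q genes and at most 1 of the endothelial genes, median depth 4553.5 to 7238 UMIs), which should lack these genes, Esm1 was detected in 0 to 1.49% and Apln in 1.32% to 2.85% of cells. SyS cells held Apln more often, in 8.60% to 18.8%, and mural cells held Angpt2 in 9.66% to 51.5%, less often than tip cells in 4 of 5 tumours, and Pgf in 4.62% to 12.5%, a range like that of tip cells. Of the defining endothelial genes, both in the gate, Cdh5 (VE-cadherin) was detected in 96.6% to 100% and Kdr (the main VEGF receptor) in 83.3% to 90.9% of tip cells, against 1.33% to 2.85% and 0.496% to 4.12% of macrophages. Both genes also served to choose the macrophages, so this contrast was set in part by the gates.

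The median tip cell carried 9, 7, 7, 5.5 and 6.5 UMIs of the 4 genes in BP 1, BP 2, MP, MP+BP and PD+MP. Just inside the threshold, at 3 UMIs, stood 40, 29, 62, 29 and 4 cells, and just outside it, at 2 UMIs, 53, 51, 45, 38 and 9 cells, which belonged to neither set. Tip cells were also much deeper than non-tip cells. Their median total was 7103, 6262.5, 6797.5, 7394 and 5684.5 UMIs, against 2884, 2982, 2923, 3397.5 and 3784.5 in non-tip cells of the same tumours. A larger RNA content and a better captured cell cannot be told apart here, so calls are given below for all cells and again for cells thinned to 2500 UMIs, in which both sets have the same depth and the gate was applied anew. Thinning left out 2 to 28 tip and 5 to 115 non-tip cells per tumour that held fewer UMIs. Applied anew, the gate gave 156, 89, 161, 56 and 20 tip cells in BP 1, BP 2, MP, MP+BP and PD+MP. Non-tip sets then held 221, 226, 241, 279 and 27 cells. A tip cell that kept at most 1 UMI of the 4 genes now counted as non-tip. The limits on Adgrb3, the C1q genes and Rgs5 were also applied only after thinning. A cell over a limit with all UMIs could therefore enter the thinned sets. In BP 1, 790 kept cells had at least 4 endothelial genes detected, of which 553 passed these limits with all UMIs. The part of these changed sets in calls lost on thinning was not tested. Cells of 3000 to 8000 UMIs were compared as well.

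Each of the 4 genes was tested in cells that it had not helped to choose, namely endothelial cells with at least 3 against at most 1 UMI of the other 3 genes. Esm1 stood at 660, 757, 479, 175 and 447 CPM (UMIs of a gene per 1000000 UMIs of the summed cells) in the high cells of BP 1, BP 2, MP, MP+BP and PD+MP, and at 388, 379, 314, 73.9 and 201 CPM in the low cells. Apln stood at 351, 170, 577, 342 and 1032 CPM against 175, 68.5, 287, 170 and 419 CPM. Angpt2 stood at 279, 157, 170, 92.9 and 192 CPM against 109, 37.5, 46.3, 40.3 and 80.0 CPM. For all 3 genes the high cells exceeded the low cells in 5 of 5 tumours, although the ranges over tumours overlapped.

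The edgeR log2 fold changes with tumour as a term were 0.95 (SE 0.10, adjusted p = 3.0e-05) for Esm1, 1.16 (SE 0.081, adjusted p = 9.6e-07) for Apln and 1.64 (SE 0.13, adjusted p = 5.2e-07) for Angpt2. Pgf, which rested on few UMIs (2 and 0 in the high and low cells of PD+MP), gave 1.73 (SE 0.29, adjusted p = 9.2e-04). In thinned cells the differences were 1.23 for Esm1, 1.30 for Apln and 2.18 for Angpt2, none of them smaller than with all UMIs, and Pgf was too low to be tested. The 4 genes that define the tip gate therefore rose together when each was set against the others.

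**Figure D2:**
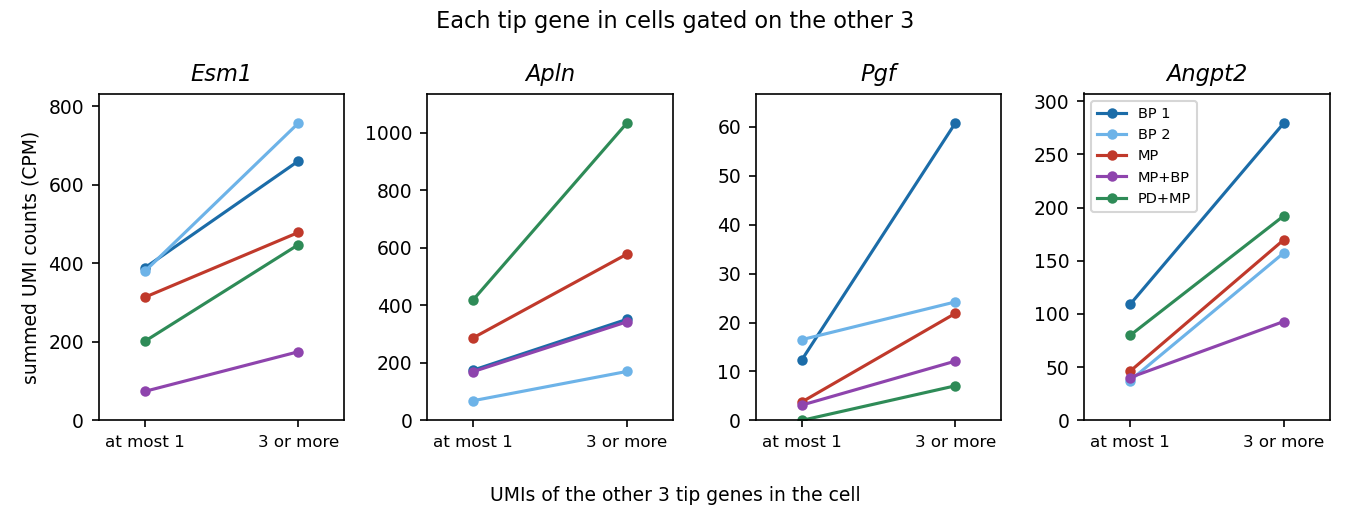
Summed UMI counts (CPM) of each tip gene in endothelial cells with at most 1 against 3 or more UMIs of the other 3 tip genes. Lines join the 2 sets of 1 tumour, and every line rises, for example from 73.9 to 175 CPM for Esm1 in MP+BP and from 419 to 1032 CPM for Apln in PD+MP.

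To find which genes go with the tip genes among endothelial cells of 1 tumour, UMI counts were summed over the tip cells and over the non-tip cells of each tumour, and the pairs were compared within tumours. Of 9674 genes tested, 557 were higher in tip cells (5.76%) and 573 lower (5.92%). In thinned cells, 74 of 5828 were higher (1.27%) and 35 lower (0.601%). Of the 532 higher genes that were tested in thinned cells, 466 kept their direction and 56 were called again, and of the 232 such lower genes 197 kept it and 19 were called again. Leaving out BP 1 or BP 2 reduced the higher genes to 316 and 333 and the lower genes to 370 and 337, and leaving out MP+BP left 378 lower genes.

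The non-tip sets also held more RNA of SyS cell and fibroblast markers, and its part in the lower genes was not tested. Summed over a list of 12 SyS markers, tip cells held 177 to 336 CPM and non-tip cells 249 to 1107 CPM, and over 10 fibroblast markers 22.7 to 128 CPM against 34.2 to 1092 CPM, with tip cells lower in 5 of 5 tumours for both lists. Haemoglobin genes fell by edgeR (Hbb-bt, Hba-a1 and Hba-a2), while DESeq2 called 0 genes of the T cell and erythroid list lower. The sum of this list was 65.2 CPM in tip and 4864 CPM in non-tip cells of BP 2, and 8.44 and 2203 CPM in MP. In PD+MP it went the other way, at 958 CPM in tip and 9.47 CPM in non-tip cells. The part of these cells in the results was not tested beyond the comparison given next. Mural markers summed to 42.4 to 128 CPM against 66.3 to 144 CPM and macrophage markers to 47.4 to 60.9 CPM against 28.4 to 115 CPM, so these sums overlapped. The fibroblast genes Lum, Dpt and Mfap5 and the T cell gene Cd3d were at 0 UMIs in tip cells, and the leukocyte gene Ptprc had 23 UMIs over all 963. When every cell with a UMI of Ptprc, Pdgfrb, Col1a1 or Tle1 was left out, 280 of 7161 genes were higher (3.91%) and 213 lower (2.97%). Calls that held in all 4 comparisons (all cells, thinned cells, cells of 3000 to 8000 UMIs, cells with no UMI of those 4 genes) numbered 32 higher and 12 lower of 5681 genes tested in each. The 4 comparisons share cells and are not independent of each other.

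Genes that mark tip cells in other tissues, taken as a list of 26 outside the gate, were mostly higher. Of 26 tested, 18 rose and none fell, against 5.76% higher and 5.92% lower over all genes. The median log2 fold change was 0.55 against -0.026 over all genes, and the list was written with results of these data known. In thinned cells 7 of 25 rose, namely Pdgfb, Cxcr4, Adm, Igfbp3, Kcne3, Trp53i11 and Rgcc, with a median of 0.33, against 1.27% of all genes. In cells with no UMI of the 4 other-cell genes 16 of 26 rose, against 3.91% of all genes. The list's genes summed to 7109 to 11384 CPM in tip cells and 4979 to 7445 CPM in non-tip cells, higher in 5 of 5 tumours.

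Cxcr4, the receptor for the chemokine Cxcl12, stood at 439, 354, 269, 256 and 177 CPM in tip cells of BP 1, BP 2, MP, MP+BP and PD+MP. Non-tip cells held 192, 167, 176, 122 and 66.3 CPM. Tip cells were higher within every tumour, while PD+MP tip cells lay within the non-tip range of the other tumours, and the log2 fold change was 1.05 (SE 0.11, edgeR adjusted p = 8.0e-06). Its mean over tumours was 142 CPM in cells with no UMI of the tip genes, 253 CPM at 3 UMIs, 224 CPM at 4 to 6 and 338 CPM at 7 or more, while the median depth of these cells went from 2845 to 8062 UMIs. It was called in all 4 comparisons.

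Kcne3 encodes a potassium channel subunit. It was at 75.1, 96.0, 75, 15.7 and 53.0 CPM in tip cells and 23.7, 22.0, 17.7, 6.90 and 0 CPM in non-tip cells of the same tumours, with 0 UMIs in the small non-tip set of PD+MP. It rose by 1.93 on the log2 scale (SE 0.20, edgeR adjusted p = 8.0e-06), the most of any gene in the list. Trp53i11, a p53-inducible transmembrane gene, stood at 254, 217, 147, 106 and 258 CPM against 104, 115, 83.6, 57.7 and 18.9 CPM (log2 fold change 1.12, SE 0.16, edgeR adjusted p = 1.1e-04). Both genes were called in all 4 comparisons, and both were lowest in MP+BP among tip cells.

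Pdgfb, through which endothelial cells recruit pericytes, was at 158, 140, 157, 175 and 247 CPM in tip cells and 125, 92.2, 134, 119 and 56.8 CPM in non-tip cells. The 2 ranges did not overlap, and the log2 fold change was 0.56 (SE 0.14, edgeR adjusted p = 0.011). The call held in thinned cells (0.67), but it was lost without BP 2, and when cells with at least 2 UMIs of the tip genes were set against those with 0. Adm, which encodes the vessel-acting peptide adrenomedullin, was called in all 4 comparisons (log2 fold change 1.04, SE 0.23, edgeR adjusted p = 0.0062), at 41.4 ± 15.4 CPM in tip cells and 17.3 ± 9.16 CPM in non-tip cells (SD, n = 5). Its rise in MP+BP was only from 19.4 to 19.9 CPM.

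Some genes often taken as the core of the tip state did not pass the test with all cells. Dll4, the Notch ligand of tip cells, was at 332, 317, 260, 225 and 212 CPM in tip cells against 266, 242, 253, 219 and 180 CPM, a log2 difference of 0.24 (SE 0.10) that did not pass the test (edgeR adjusted p = 0.13), although tip cells were higher in 5 of 5 tumours. The Dll4 difference was 0.35 and was called with no filter on low counts, and it was -0.020 in cells with no UMI of the 4 other-cell genes. The differences were 0.24 for the VEGF co-receptor Nrp1 and -0.09 for the netrin receptor Unc5b, and neither passed, while Nrp1 was higher in 5 of 5 tumours and was called with no filter on low counts (0.35). Flt4, the receptor for VEGF-C, passed with all cells (0.54, SE 0.15, edgeR adjusted p = 0.021), but not in thinned cells (0.18), nor without BP 1, BP 2 or MP+BP. Of the list's other genes that rose with all cells, Chst1 (1.24), Lxn (0.79), Plaur (0.78), Fscn1 (0.76), Cd93 (0.66), Ednrb (0.64), Robo4 (0.61), Mcam (0.54), Plxnd1 (0.50) and Cd34 (0.47) were not called when thinned.

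**Figure D3:**
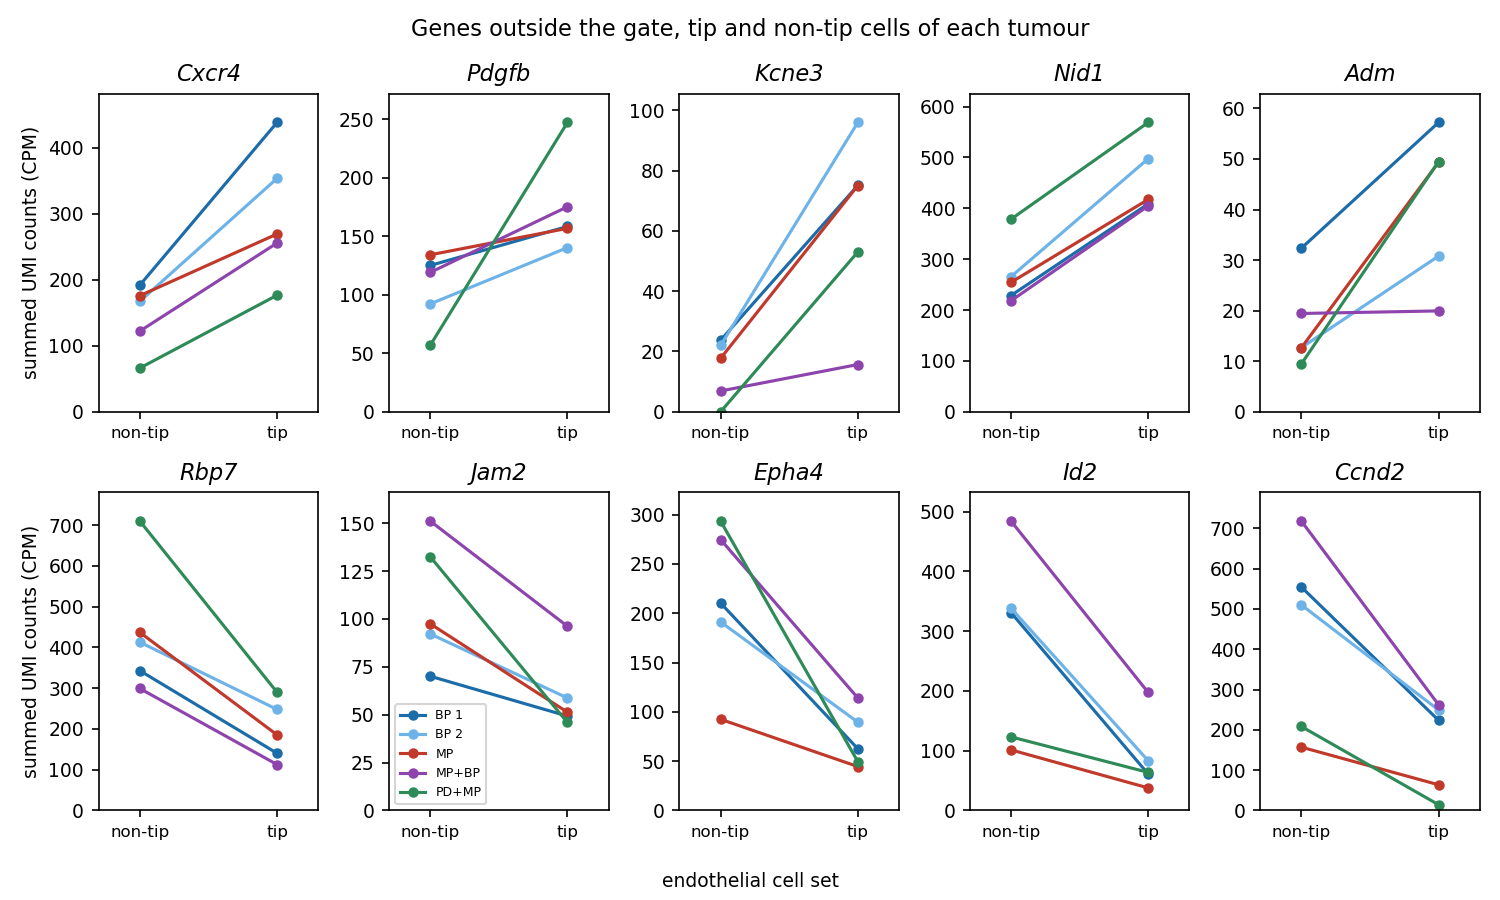
Summed UMI counts (CPM) of 10 genes outside the gate in non-tip and tip cells, with lines joining both sets of 1 tumour. Each of these genes was called in all 4 comparisons and moved the same way in every tumour, as for Cxcr4 (66.3 to 192 CPM in non-tip cells, 177 to 439 CPM in tip cells).

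Basement membrane genes encode the collagen IV, laminin and nidogen sheet on which endothelial cells sit. With the matrix genes listed beside them, 15 of 24 tested rose and 2 fell (median log2 fold change 0.48), against 5.76% and 5.92% of all genes. In thinned cells 4 of 23 rose, namely Nid1, Nid2, Lamc1 and Fn1, and none fell, against 1.27% and 0.601% of all genes. Nid1, which encodes nidogen-1, the link between laminin and collagen IV, was at 409, 498, 418, 405 and 569 CPM in tip cells and 229, 266, 254, 218 and 379 CPM in non-tip cells, with no overlap. Its log2 fold change was 0.85 (SE 0.087, edgeR adjusted p = 8.0e-06), and 0.52 in thinned cells. Fn1 (fibronectin) rose by 0.88 (SE 0.18, edgeR adjusted p = 0.0035) and was highest in PD+MP, where both sets were near each other at 519 and 511 CPM.

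Of the collagen IV chains, Col4a1 stood at 2764, 2508, 3314, 3663 and 3664 CPM in tip cells and 1940, 1720, 2395, 1950 and 2802 CPM in non-tip cells, and rose by 0.61 on the log2 scale (SE 0.072, edgeR adjusted p = 3.1e-05). Col4a2 followed it at 0.48. Both were higher in 5 of 5 tumours, but in thinned cells the differences of 0.27 and 0.30 were not called. Plod2, a lysyl hydroxylase of collagen, and the laminin chain Lamb2 were the 2 genes that fell (-1.30 and -0.79), and neither was called in cells with no UMI of the 4 other-cell genes.

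In the list of VEGF, angiopoietin and apelin receptors and ligands, 12 genes were tested outside the gate, of which Flt4 and Robo4 rose and Vegfa fell. Robo4, which also stands in the axon guidance list, is not itself a receptor or ligand of these families. Of all genes 5.76% were higher and 5.92% lower. The median log2 fold change of the list was 0.010, and -0.094 with no call in thinned cells. Vegfa itself, the ligand, was at 11.6, 10.0, 7.14, 12.1 and 3.53 CPM in tip cells and 50.7, 24.5, 5.06, 41.4 and 37.9 CPM in non-tip cells, so that it was not lower in MP. SyS cells, whose markers were higher in the non-tip sets, held Vegfa at 68.0 to 118 CPM and in 45.0% to 61.9% of cells, and their part in this difference was not tested. Tek, the receptor of Angpt2, was lower in 4 of 5 tumours without passing the test (-0.28, SE 0.13, edgeR adjusted p = 0.20), and it was called lower among cells of 3000 to 8000 UMIs (-0.61) and among cells with no UMI of the 4 other-cell genes (-0.74). Aplnr, the receptor of Apln, was at 79.5 and 83.6 CPM on average (-0.17, edgeR adjusted p = 0.59). In the Notch pathway 1 of 15 genes rose (Mfng, a Notch-modifying enzyme) and 2 fell (the ligand Jag1 and the receptor Notch2), none of which was called in thinned cells, where the Notch target Nrarp alone rose (0.67). Notch1 was higher in 5 of 5 tumours (0.30, SE 0.098, edgeR adjusted p = 0.054) and passed under 5 alternatives, among them no filter on low counts (0.42), but its sign turned in thinned cells (-0.11). Its target Hey1 (0.012) did not pass.

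The genes of other vessel types divided differently. Of 11 arterial genes, 5 fell (Gja4, Gja5, Bmx, Mgp and Stmn2) and none rose, with a median of -0.78, against 5.92% of all genes lower. In cells with no UMI of the 4 other-cell genes 4 of 10 were lower (median -0.55). In thinned cells 1 of 7, Efnb2, was lower (median -0.17). Gja4, which encodes a gap junction protein of arteries, stood at 13.9, 74.5, 35.7, 8.55 and 21.2 CPM in tip cells and 50.7, 99.8, 78.5, 45.2 and 133 CPM in non-tip cells (log2 fold change -1.27, SE 0.23, edgeR adjusted p = 0.0012), and it was not called when thinned (-0.85). Mgp (matrix Gla protein) reached 4099 CPM in the non-tip cells of PD+MP and 36.7 to 325 CPM in those of the other tumours, against 1.62 to 17.1 CPM in tip cells. Stmn2 is best known from neurons.

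Capillary genes gave 2 higher and 1 lower of 10 tested, against 5.76% and 5.92% of all genes, and the 2 higher genes were called in all 4 comparisons. The list as a whole did not rise, with 3 of 10 differences positive and a median of -0.066. In cells with no UMI of the 4 other-cell genes 2 were higher and 3 lower (median -0.13), and in thinned cells 2 of 7 were higher and none lower (median 0.17). Its sum was higher in tip cells of 4 of 5 tumours, but 2449 against 8519 CPM in PD+MP. Gpihbp1, which anchors lipoprotein lipase on capillary endothelium, stood at 1027, 1208, 1059, 669 and 583 CPM in tip cells and 713, 857, 739, 390 and 416 CPM in non-tip cells (log2 fold change 0.61, SE 0.076, edgeR adjusted p = 4.8e-05). Rgcc, a cell cycle regulator of capillary cells that also stands in the tip list, was at 267, 335, 639, 819 and 781 CPM against 203, 219, 563, 512 and 379 CPM (0.57, SE 0.10, edgeR adjusted p = 0.0012). Cxcl12, the ligand of Cxcr4, fell by 1.74 (SE 0.24, edgeR adjusted p = 1.1e-04). Its level was 5.01 to 56.5 CPM in tip cells and 38.8 to 142 CPM in non-tip cells. Of 11 venous genes Bgn rose with all cells (0.96) and was not called when thinned, where Vwf rose and Selp fell, and in the lymphatic list, of which 4 genes were tested, Flt4 rose and Reln fell.

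By edgeR and by DESeq2, 0 of 18 S phase and 0 of 22 G2 and M phase genes passed, and 0 and 2 of them had an unadjusted p under 0.05 in edgeR, with medians of -0.00085 and -0.10. Over all genes 5.76% were called higher and 5.92% lower, so that 0 calls in lists of this size is near the background. Mki67, a marker of cycling cells, stood at 37.0, 17.2, 72.4, 42.7 and 77.7 CPM in tip cells against 74.4, 21.1, 49.4, 39.5 and 75.7 CPM in non-tip cells. Outside these lists the cyclin genes Ccnd1 and Ccnd2, which act before S phase, moved in opposite directions in all 4 comparisons, and they are named after their values were seen. Ccnd1 stood at 331, 298, 382, 284 and 449 CPM in tip cells and 179, 208, 216, 215 and 265 CPM in non-tip cells, without overlap (log2 fold change 0.70, SE 0.097, edgeR adjusted p = 1.1e-04). Ccnd2 stood at 224, 249, 63.6, 262 and 14.1 CPM against 554, 510, 157, 718 and 208 CPM (-1.32, SE 0.14, edgeR adjusted p = 1.4e-05).

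Of the glycolysis and hypoxia genes, 6 of 22 rose and 1 fell, against 5.76% and 5.92% of all genes. In thinned cells 3 of 19 rose, against 1.27% of all genes. Ankrd37 (1.17) and Adm (1.04), which hypoxia is known to induce, were called in both, and Pfkfb3 (0.90), Pfkp (0.55), Pkm (0.50) and Gapdh (0.39), all of glycolysis, with all cells only. The median was 0.16, and 0.29 in thinned cells. The gene that fell was Vegfa. The third gene that rose in thinned cells, Tpi1, had a difference of -0.22 with all cells.

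Within the BMP and TGF-beta pathway, 6 of 19 genes rose and 4 fell, against 5.76% and 5.92% of all genes. The ligand Bmp2 stood at 107, 148, 14.9, 33.5 and 45.9 CPM in tip cells and 30.2, 63.4, 6.33, 16.3 and 18.9 CPM in non-tip cells (log2 fold change 1.41, SE 0.16, edgeR adjusted p = 2.9e-05). The target Id2, an inhibitor of transcription factors, stood at 60.9, 83.1, 37.7, 197 and 63.6 CPM against 331, 338, 101, 484 and 123 CPM (-1.72, SE 0.15, edgeR adjusted p = 2.3e-06). Both were called in all 4 comparisons, and Id2 was smaller in thinned cells (-0.92) and in cells with no UMI of the 4 other-cell genes (-0.57). Id1 (-0.38) and Id3 (-0.45) were called with all cells and not when thinned.

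Junction genes rose in 6 of 17 and fell in 1 (median 0.23), where 5.76% of all genes were higher and 5.92% lower. The gene that fell, Jam2 (junctional adhesion molecule B), was the 1 member of the list called when thinned, at 49.3, 58.7, 51.3, 96.2 and 45.9 CPM in tip cells and 70.1, 92.2, 97.5, 151 and 133 CPM in non-tip cells (log2 fold change -0.69, SE 0.13, edgeR adjusted p = 0.0012, and -1.28 in thinned cells). Of 24 endothelial transcription factor genes 4 rose (16.7%) and 1 fell (4.17%, near the share of all genes) with all cells. None was called in thinned cells, where Sox7 and Foxo1 turned from 0.47 and 0.48 to -0.11 and -0.073. Of the axon guidance genes, 3 of 20 rose (15%) and 5 fell (25%). The ephrin receptor Epha4 stood at 62.5, 89.5, 44.5, 114 and 49.5 CPM against 210, 191, 92.4, 275 and 293 CPM and was called in all 4 comparisons (-1.35, SE 0.14, edgeR adjusted p = 8.0e-06). The call of the Robo ligand Slit3 (-1.67) was lost in cells with no UMI of the 4 other-cell genes.

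Leukocyte adhesion and chemokine genes split with all cells, with Cxcl9 and Ccl2 higher and Cx3cl1, Ackr3 and Il6 lower of 13 tested. In thinned cells 1 of 9 was higher and 2 were lower (list median -0.16), against 1.27% and 0.601% of all genes. Among cells of 3000 to 8000 UMIs 0 of 9 were higher and 3 lower (list median -0.80), against 65 and 50 of 6028 genes. With all cells, 5.76% of all genes were higher and 5.92% lower. Ccl2, the monocyte chemokine, rose by 1.38 (SE 0.31, edgeR adjusted p = 0.0064) and was called when thinned, but it was lower in tip cells of BP 2 and stood at -0.80 among cells of 3000 to 8000 UMIs. In the antigen presentation list, 2 of 11 genes fell and none was called when thinned. Of 13 mitochondrially encoded genes 11 fell with all cells (median -0.34) and none in thinned cells, where the median was 0.069 and so of the other sign. The median mitochondrial share of a cell was 3.57% to 4.39% in tip cells and 3.98% to 5.43% in non-tip cells. Of 16 dissociation response genes, Dusp1 rose and Hspb1 fell, with a median of 0.00037.

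**Figure D4:**
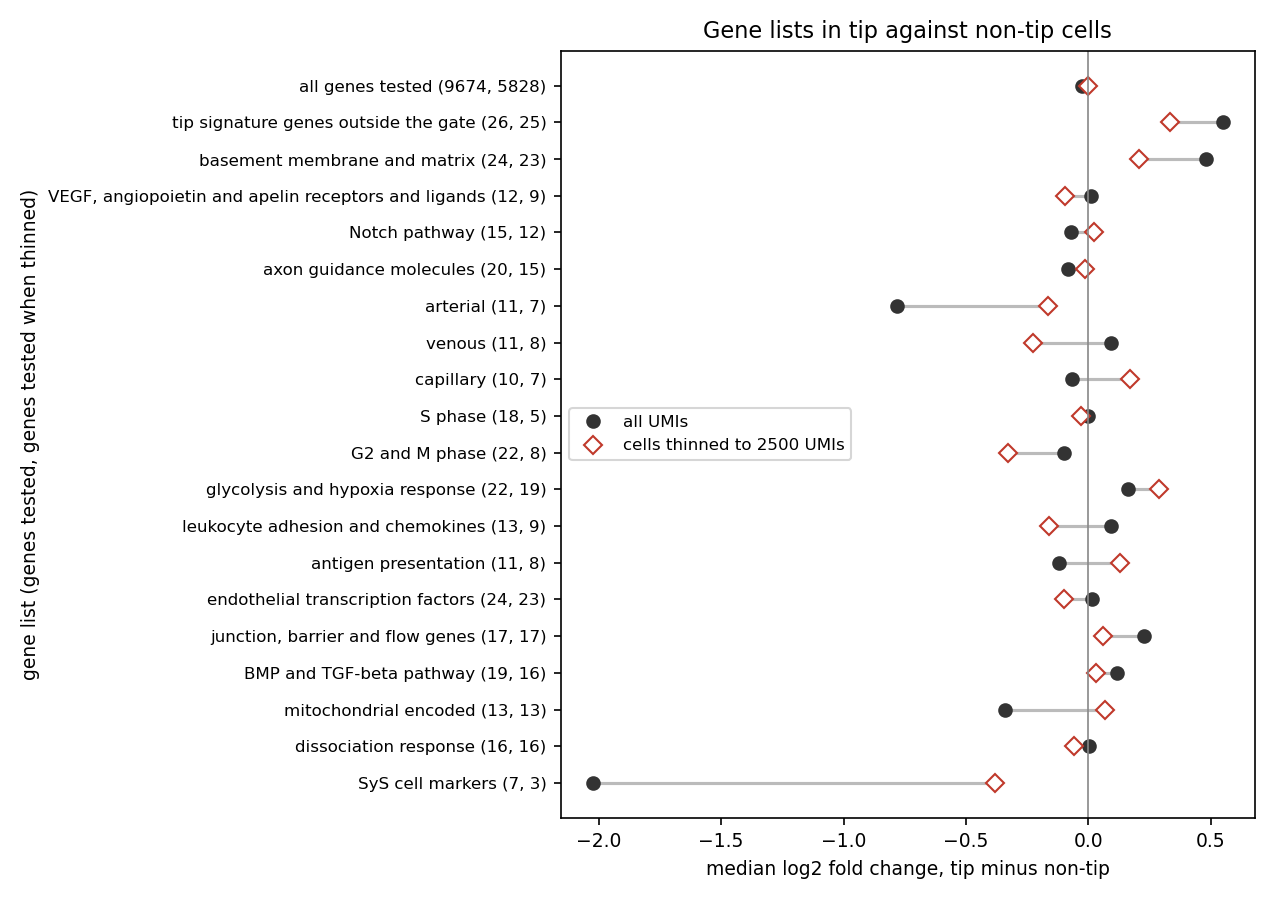
Median log2 fold change (tip minus non-tip) of gene lists with all UMIs (filled circles) and after thinning cells to 2500 UMIs (open diamonds), with the numbers of genes tested in brackets. The lymphatic, macrophage, mural, fibroblast and T cell and erythroid lists, with few genes tested, are not drawn. Tip signature genes (0.55 and 0.33) and basement membrane genes (0.48 and 0.21) stay to the right of 0, while mitochondrially encoded genes move from -0.34 to 0.069. The arterial medians, -0.78 over 11 genes and -0.17 over 7 when thinned, are of unlike gene sets.

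Outside the lists, among called genes with at least 20 CPM and 1 direction in every tumour, the largest rise was that of Gzmk, which encodes granzyme K, a protease best known from T cells. It stood at 68.1, 83.8, 59.4, 18.5 and 24.7 CPM in tip cells and 10.8, 8.46, 12.7, 2.51 and 18.9 CPM in non-tip cells (log2 fold change 2.73, SE 0.24, edgeR adjusted p = 2.3e-06) and was called when thinned (2.96). Over all 963 tip cells the T cell genes Cd3d, Cd3e, Cd3g and Trac and the lymphocyte gene Nkg7 had 0, 2, 3, 3 and 5 UMIs, of which all but 1 UMI of Trac were in BP 2, the tumour with the highest Gzmk. In the non-tip cells they had 0, 0, 1, 7 and 0 UMIs. The part of T cells in the Gzmk values was not tested. Thbs1, which encodes thrombospondin-1, an inhibitor of angiogenesis, rose by 1.40 (SE 0.19, edgeR adjusted p = 1.0e-04), and Plau, the urokinase whose receptor Plaur stands in the tip list, by 1.24 (SE 0.22, edgeR adjusted p = 0.0010). Thbs1 was called in all 4 comparisons, and Plau was too low to be tested in thinned cells. AA467197, Lcp2, Mical2, Morc4 and Samsn1 completed the 8 highest, at 1.20 to 1.81.

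Other genes called higher in all 4 comparisons are named after their values were seen. Kit, the stem cell factor receptor, stood at 162, 154, 164, 237 and 145 CPM in tip cells and 105, 79.5, 114, 130 and 37.9 CPM in non-tip cells, with no overlap (log2 fold change 0.82, SE 0.12, edgeR adjusted p = 1.7e-04). Tmsb4x, which encodes the actin-binding peptide thymosin beta-4, stood at 21418, 19781, 20871, 18120 and 23669 CPM against 12860, 13012, 16371, 11103 and 12561 CPM (0.70). The others included the matricellular gene Ccn2 (1.14), the NADPH oxidase gene Nox4 (1.00), the calcium-binding protein gene S100a6 (0.96), the tropomyosin gene Tpm4 (0.69) and the Arp2/3 subunit gene Arpc3 (0.46). Ccn2 was higher in 4 of 5 tumours and the other 6 named here in 5 of 5.

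By the same rule the 8 lowest genes outside the lists were Sdc4 (-3.67), Nebl (-3.42), Ebf2 (-3.28), Ntng1 (-3.17), Trpm3 (-3.03), Tenm3 (-2.95), Cacna2d3 (-2.87) and Sox6 (-2.86). All 8 were too low to be tested in thinned cells or in cells with no UMI of the 4 other-cell genes, and they are read beside the SyS and fibroblast marker sums above, as are Col1a1 (-3.10), Meg3 (-2.90), Nxph1 (-2.77) and Epcam (-2.45). Among genes called lower in all 4 comparisons, Rbp7, which encodes a retinol-binding protein, stood at 140, 248, 185, 113 and 290 CPM in tip cells and 343, 413, 437, 299 and 710 CPM in non-tip cells, without overlap. Its log2 fold change was -1.14 (SE 0.11, edgeR adjusted p = 3.3e-06), and -1.04 in thinned cells. Lmo1, which encodes a transcriptional cofactor, also did not overlap, at 20.1 to 56.5 CPM against 63.4 to 105 CPM (-1.25). These 2 genes are named after their values were seen.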

How the data were processed

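Single-cell RNA-seq libraries (10x 3′ chemistry) of 5 mouse SyS tumours were used, grouped by the histology in the labels. Cell Ranger 7.2.0 and mm10 are named per the file headers and the submitters' processing notes. The authors deposited filtered matrices whose values are whole-number UMI counts of a gene in a cell, with no normalization. Total UMI counts were 89996321 to 118649103 per tumour, and summed counts were 282989 to 3079829 UMIs for tip cells and 105646 to 1594596 for non-tip cells. Coordinates came from GENCODE M21 (GRCm38), which holds 32235 of 32286 identifiers. Of 388 listed genes 2 (Ccl21a and Aldoa) could not be matched, since their symbols belong to several identifiers.

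The members and gene lists were chosen with earlier results of these data known. Counts were summed per tumour and cell set, normalised by TMM, filtered by filterByExpr and tested with edgeR 4.0.16 (quasi-likelihood test, tumour as a term, because both sets of a pair come from 1 tumour), with Benjamini-Hochberg adjusted p under 0.05 over all genes tested. The 17 gate genes were left out of calls. CPM are counts per 1000000 summed UMIs of a set. SD are over tumours, and the SE of a log2 fold change was derived from the quasi-likelihood test. Whether the tumours came from separate animals is not stated. With tumour as a term, p-values measure the spread of the tip minus non-tip difference over these samples, not the spread of levels between them. In 3′ counts, levels are compared within a gene.

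Alternatives were DESeq2 1.42.0, its size factors, total counts, 2 filters on low counts, no tumour term, leaving out each tumour, other thresholds, thinning of each cell to 2500 UMIs, cells with no UMI of Ptprc, Pdgfrb, Col1a1 or Tle1, removal of doublets (Scrublet in scanpy 1.11.5, highest scores up to 0.8% per 1000 cells) and, chosen after seeing the data, cells of 3000 to 8000 UMIs. Doublets stayed in the main sets, of which Scrublet marked 0 to 4.35% of tip cells and 0 to 8.98% of non-tip cells. Pairs of tumours shared 9 to 20 barcodes among kept cells and 0 among gated cells.

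Genes named were fixed by rule, as the gate genes, 14 genes of the tip programme whatever their result, up to 4 called genes per list with the largest change in the same direction in every tumour, and the 8 highest and 8 lowest such genes outside the lists with at least 20 CPM. Genes outside this rule, further list members included, were named after their values were seen. A gene under the rule is not reported here. Changes in the abundance of a cell type and in RNA per cell were not separated.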

Additional observations from a re-analysis of the deposited data

Results flagged for a closer look

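Over the 5 tumours, 55 sets of values (the tip share and the log2 ratio of tip over non-tip CPM for each named gene with at least 3 UMIs in every sum) were screened for 1 tumour far from the other 4 by Dixon's criterion, which marks about 1 in 20 sets by chance. It marked 3. Pdgfb had a ratio of 2.12 in PD+MP, where the non-tip set held 22 cells, and 0.22 to 0.61 in the other tumours. Cxcl12 had a ratio of -3.96 in BP 2 and -1.63 to -1.23 in the others. Gpihbp1 had a ratio of 0.78 in MP+BP and 0.49 to 0.53 in the others. The cause of these differences was not tested.

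The matrices also hold an EGFP entry, which no comparison above uses and whose source is not given in the sources used here. It had 19 UMIs in 15 of 963 tip cells (1.56%). The share was 2.50% in non-tip cells, 2.84% in macrophages, 2.99% in mural cells and 26.5% in SyS cells. The share in tip cells was thus not above that in macrophages or mural cells.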

How the results depend on the processing

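The number of genes higher in tip cells was 74 in thinned cells, 65 among cells of 3000 to 8000 UMIs, 222 with at least 6 endothelial genes, 280 in cells with no UMI of Ptprc, Pdgfrb, Col1a1 or Tle1, 270 with at least 10 counts in every sum and 1103 with no filter on low counts. The number of lower genes was 35, 50, 248, 213, 210 and 892 in the same order, and 367 for at least 2 UMIs of the tip genes against 0. Fewer genes were tested in thinned cells (5828), in the UMI window (6028), with the filter of 10 counts (2152) and more with no filter (22486). Leaving out 1 tumour in turn gave 316 to 661 higher and 337 to 635 lower genes.

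Without the replicate block (the tumour term) 78 genes were higher and 218 lower, and the left-out tests of Esm1 (0.91), Apln (1.19) and Pgf (1.76) no longer passed, while Angpt2 passed under each alternative run for it. The other thresholds on the tip genes were not run for these left-out tests. Both sets of a pair come from 1 tumour, so the block is part of the design. The tip share in thinned cells averaged 29.2%, against 45.0% with all UMIs, and its difference between tumours with and without BP kept its sign under all alternatives (-23.3 to -9.74 percentage points).

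Of the values for 83 named genes under all alternatives, 1096 kept direction and call, 188 lost the call, 11 gained it and 32 changed sign. Most losses came without the block (47), in thinned cells (24) and in the UMI window (24). The 11 gained calls were those of Dll4 and Nrp1 with no filter (0.35 each), Notch1 with no filter (0.42), DESeq2 size factors (0.31), tip genes at 5 (0.36) and without MP or PD+MP (0.38 and 0.34), and Tek with 6 endothelial genes (-0.49), no UMI of the other-cell genes (-0.74), the UMI window (-0.61) and without MP+BP (-0.45). The changes of sign in thinned cells were Unc5b 0.12, Notch1 -0.11, Tapbp 0.24, Foxo1 -0.073, Sox7 -0.11, mt-Atp8 0.46, mt-Nd5 0.073 and mt-Nd4l 0.081. In the UMI window they were Notch1 -0.29, Sox7 -0.14, mt-Atp8 0.29, mt-Nd5 0.077, mt-Nd4l 0.21 and Dusp1 -0.21. In cells with no UMI of the 4 other-cell genes they were Dll4 -0.020, Notch1 -0.031 and Hey1 -0.043. Hey1, which was near 0 with all cells, was also negative with total counts (-0.025), no block (-0.00411), tip genes at 2 against 0 (-0.15) and at 5 (-0.015), no doublets (-0.030) and 6 endothelial genes (-0.14). Mki67 was positive with no filter (0.0044), no block (0.041), tip genes at 2 against 0 (0.042) and 6 endothelial genes (0.00898), and Unc5b with no filter (0.018) and without MP (0.0020). Leaving out 1 tumour in turn, Unc5b ranged from -0.13 to 0.0020, Hey1 from -0.17 to 0.23 and Mki67 from -0.35 to 0.22. The causes were not tested.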
